A study of Canis lupus familiaris with 11 samples.

Results

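The genes described here encode the nuclear subunits of the mitochondrial oxidative phosphorylation complexes. They were chosen by name: every feature whose single gene symbol began with NDUFA, NDUFB, NDUFC, NDUFS or NDUFV and a digit, was SDHA to SDHD, began with UQCR, with COX and a digit from 4 to 8, or with ATP5F1, ATP5M or ATP5P. No measured value entered this rule, though it was set with earlier results of these data known. Of 15947 genes, 57 met it. Sorted into complexes by name alone, they comprised 31 genes of complex I, 3 of complex II, 7 of complex III, 9 of complex IV and 7 of ATP synthase. NDUFA4L2 was counted in complex I for its name only. Each of the 57 genes was measured by 1 feature.

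The samples were canine stromal vascular fraction (SVF), the mixture of stromal, vascular and immune cells left after fat is digested, hybridised to 11 Affymetrix arrays. Visceral fat labelled as coming from dogs 2 and 3 was digested by 1 company. The label of both numbers describes the same animal type, a neutered male German Shepard mix aged 10 years. Their cells were profiled as SVF with no incubation (2 arrays per dog) or after photo-activated platelet-rich plasma (PRP), added by that company, and 6 h at 37 degrees (2 arrays per dog). PRP and incubation always came together, so a difference belongs to both. In a separate set, a neutered male Labrador aged 6 years gave 3 portions of about 20 g of fat to companies A, B and C. Each company digested its portion by its own proprietary method and froze it for about 1 month, and the cells were profiled thawed and untreated, with 1 array per company.

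Oxidative phosphorylation couples the oxidation of nutrients to the synthesis of ATP in the inner mitochondrial membrane. Complexes I and II take electrons from NADH and succinate and pass them to coenzyme Q, complex III passes them to cytochrome c, and complex IV to oxygen. Complexes I, III and IV pump protons, and ATP synthase makes ATP from the return flow. Most subunits are encoded in the nucleus and a few in mitochondrial DNA, and a few nuclear subunits exist as tissue-specific or oxygen-responsive isoforms. In white fat the stromal, vascular and immune cells and the adipocytes all carry these complexes. As a set the genes therefore mark no single cell type.

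Values are log2 expression levels, in which a difference of 1 is a 2-fold difference. The median of an array was 6.76 to 6.85 in dogs 2 and 3 and 5.14 to 5.31 for the companies, so levels were compared only within a set. Between 52 and 55 of the 57 genes lay above the median of their array in dogs 2 and 3, and 53 or 54 in the company arrays. The features for COX7B2 and ATP5ME lay below it on all arrays. All 10 stromal markers, among them DCN and COL1A1, lay above the median on each of the 11 arrays, and 13 of 14 adipocyte markers did on all 8 arrays of dogs 2 and 3. The small number of arrays limits the precision. Since no label says that the 2 arrays of a group came from separate preparations, a p-value reflects the spread of these arrays alone, and that spread may be technical.

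After PRP with incubation, the subunit genes stayed close to their SVF level. Averaged over both dogs, 44 of 57 genes had a higher mean and 13 a lower one, with a median difference of 0.075 and a range from -0.45 to 0.36. None of the 57 passed the test across all features (limma, adjusted p below 0.05), and 0.00617% of all 32391 features did. The lowest adjusted p among the genes was 0.489. At an unadjusted p below 0.05 stood 1 gene, NDUFA4L2, against 9.45% of all features. Over all features the median difference was -0.031, and 44.3% of them had a higher mean. The count of 44 was 32 without the first SVF array of dog 2, with a median over the genes of 0.010. Standard errors of the genes ran from 0.111 to 0.216, and in 42 of 57 genes the difference was smaller than its own standard error. In such bulk samples, fewer cells of a type and less RNA per cell cannot be told apart.

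**Figure D1:**
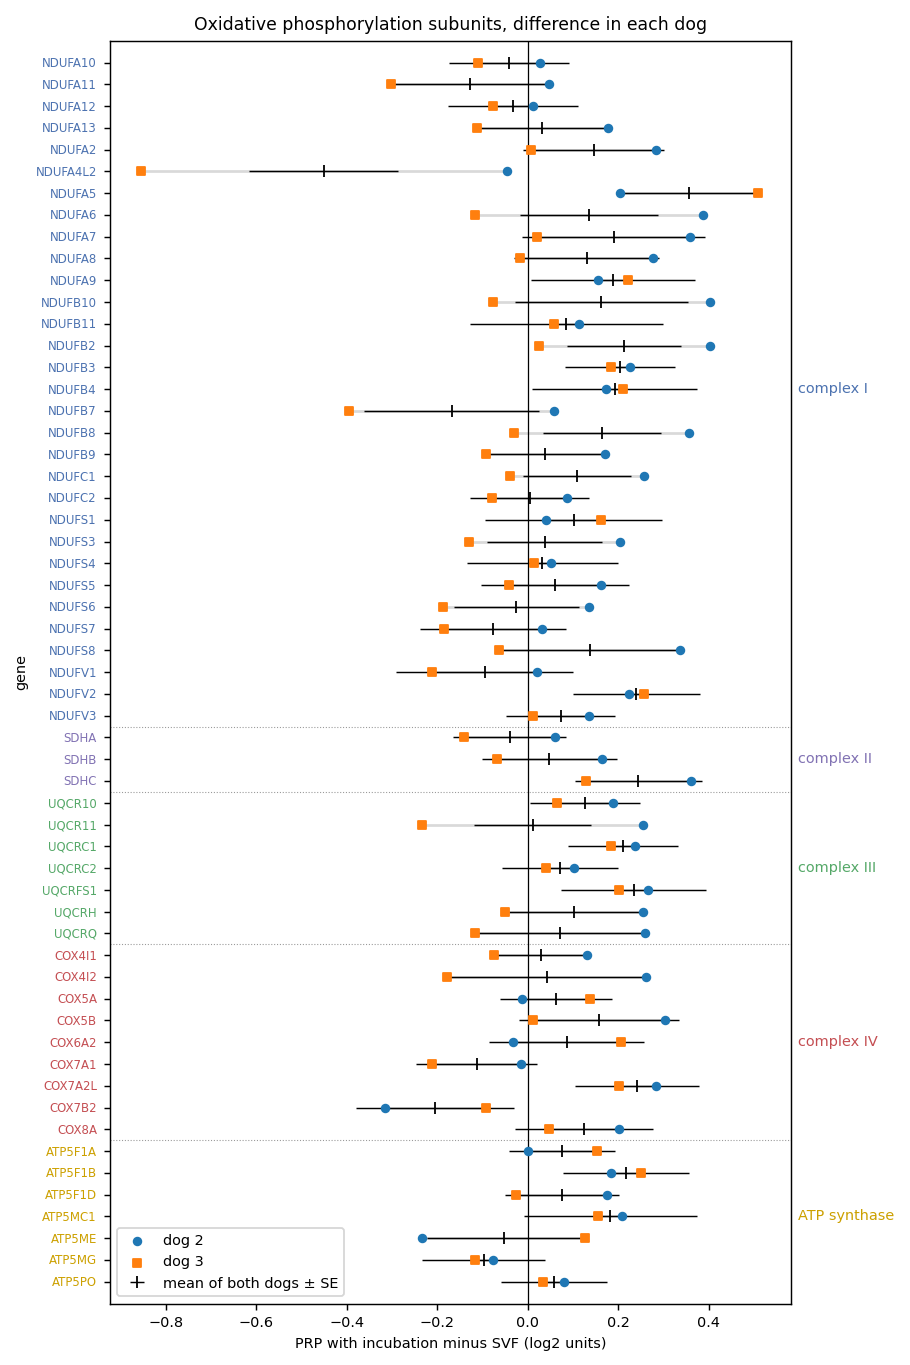
Difference of each of the 57 genes between PRP with incubation and SVF (horizontal axis, log2 units), for dog 2 (circles), dog 3 (squares) and the mean of both (tick, with its standard error). Most circles lie to the right of 0 (49 of 57) while the squares lie on both sides (27 of 57 to the right), and NDUFA4L2 in dog 3 is the farthest point, at -0.86.

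Complex I, the entry point for electrons from NADH, had 23 of 31 genes with a higher mean and a median difference of 0.085. NDUFA5, an accessory subunit of the matrix arm, had the highest difference. Its levels in dog 2 were 7.96 and 8.33 in SVF and 8.22 and 8.48 after PRP, and in dog 3 they were 7.89 and 7.68 in SVF and 8.11 and 8.48 after PRP. The groups were apart in dog 3 and overlapped in dog 2. The mean difference was 0.36 ± 0.16 (SE), or 1.28-fold (limma, adjusted p = 0.530). NDUFV2, an iron-sulphur core subunit beside the NADH site, had levels of 9.94 and 9.98 in SVF and 10.15 and 10.21 after PRP in dog 2. In dog 3 it had 10.24 and 9.77 in SVF and 10.21 and 10.32 after PRP, which overlap, and the mean difference was 0.24 ± 0.14 (SE).

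NDUFB2, an accessory subunit of the membrane arm, measured 8.19 and 8.45 in SVF and 8.73 and 8.71 after PRP in dog 2, and 8.54 and 8.70 against 8.56 and 8.72 in dog 3. Its mean difference of 0.21 ± 0.13 (SE) came mostly from dog 2, where the groups were apart. On the lower side, NDUFB7, another membrane arm subunit, measured 8.60 and 9.35 in SVF and 9.08 and 8.99 after PRP in dog 2. In dog 3 its levels were 8.74 and 8.72 in SVF and 8.56 and 8.11 after PRP, so that PRP lay below SVF in that dog alone. NDUFA11, also of the membrane arm, had the same layout, with 8.17 and 8.83 against 8.63 and 8.46 in dog 2 and 8.54 and 8.71 against 8.39 and 8.24 in dog 3. The mean differences were -0.17 ± 0.19 for NDUFB7 and -0.13 ± 0.17 for NDUFA11 (SE), each smaller than its error. Without the second SVF array of dog 2 both turned to the higher side, at 0.018 and 0.037.

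Complex II, which also works in the citric acid cycle, had 3 genes, and their median difference was 0.048. SDHC, a membrane anchor that binds haem, measured 10.17 and 10.54 in SVF and 10.80 and 10.63 after PRP in dog 2, and 10.46 and 10.31 against 10.63 and 10.40 in dog 3. The groups were apart in dog 2 and overlapped in dog 3, and the mean difference was 0.24 ± 0.14 (SE, limma, adjusted p = 0.608). SDHB, the iron-sulphur subunit, differed by 0.05 ± 0.15 and SDHA, the flavoprotein that oxidises succinate, by -0.04 ± 0.13 (SE). Neither sign was stable: SDHB stood at -0.059 and SDHA at 0.024 without the first SVF array of dog 2.

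In complex III all 7 genes had a higher mean, with a median of 0.10 and a range from 0.010 to 0.23. UQCRC1, a large core protein, measured 9.49 and 9.56 in SVF and 9.86 and 9.67 after PRP in dog 2, and 9.63 and 9.44 against 9.76 and 9.68 in dog 3. UQCR10, a small accessory subunit, measured 9.50 and 9.78 against 9.80 and 9.86 in dog 2, and 9.62 and 9.61 against 9.70 and 9.66 in dog 3. In each dog the PRP values of both genes exceeded the SVF values, by mean differences of 0.21 ± 0.12 and 0.13 ± 0.12 (SE). UQCRFS1, the Rieske iron-sulphur protein, measured 8.80 and 8.70 against 8.97 and 9.06 in dog 2 and 8.54 and 7.96 against 8.34 and 8.57 in dog 3. Its groups were apart in dog 2 only, and its mean difference was 0.23 ± 0.16 (SE). The lowest adjusted p in complex III was 0.610 (limma).

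Complex IV had 7 of 9 genes with a higher mean and a median of 0.062. COX7A2L, known for joining complexes III and IV into supercomplexes, measured 8.60 and 8.75 in SVF and 8.83 and 9.08 after PRP in dog 2, and 8.66 and 8.77 against 8.75 and 9.09 in dog 3. The groups were apart in dog 2 and overlapped slightly in dog 3, with a mean difference of 0.24 ± 0.14 (SE, limma, adjusted p = 0.605). COX5B, a subunit on the matrix side, measured 9.57 and 10.31 against 10.27 and 10.22 in dog 2 and 10.21 and 10.03 against 10.15 and 10.11 in dog 3. Its mean difference of 0.16 ± 0.18 (SE) rested on the first SVF array of dog 2, and without it the value was -0.026. COX8A, a small subunit present in most tissues, behaved alike, at 0.12 ± 0.15 (SE) and -0.0064 without that array.

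ATP synthase had 5 of 7 genes with a higher mean and a median of 0.075. ATP5F1B, the catalytic beta subunit, measured 12.10 and 11.95 in SVF and 12.15 and 12.28 after PRP in dog 2, and 12.22 and 11.80 against 12.22 and 12.30 in dog 3. PRP lay above SVF in both dogs, though 1 PRP and 1 SVF array of dog 3 print alike, and the mean difference was 0.22 ± 0.14 (SE). ATP5MC1, which encodes the proton-carrying c subunit, differed by 0.18 ± 0.19 and ATP5F1A, the alpha subunit, by 0.08 ± 0.12 (SE). ATP5MG, a small membrane subunit, measured 9.93 and 10.35 against 10.00 and 10.12 in dog 2 and 10.22 and 10.16 against 10.04 and 10.11 in dog 3. Its mean difference was -0.10 ± 0.14, and that of ATP5ME, another small membrane subunit, was -0.05 ± 0.17 (SE). Without the second SVF array of dog 2 these were 0.0076 and 0.082.

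The higher means came largely from dog 2. There 49 of 57 genes had a higher mean after PRP, with a median of 0.17 against -0.0030 over all features. In dog 3 the counts were 27 higher and 30 lower, with a median of -0.025 against -0.057 over all features. With each array centred on its median, 54 genes were higher in dog 2 and 39 in dog 3. The medians were then 0.23 in dog 2 and 0.065 in dog 3, against 0.054 and 0.034 over all features. None of the genes passed in either dog or for the difference between the dogs (limma, adjusted p below 0.05), and 0% of all features did in each of these contrasts. Unadjusted p-values below 0.05 were found for 0 genes in dog 2 (4.39% of all features), 1 in dog 3 (6.1%) and 1 for the difference (1.91%), NDUFA4L2 in both cases. The effect was more positive in dog 2 for 46 genes, with a median difference of 0.20 between the dogs against 0.045 over all features.

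By complex, the median in complex I was 0.17 in dog 2 (30 of 31 genes higher) and -0.041 in dog 3 (12 of 31). Complex III gave 0.25 (7 of 7) and 0.039 (4 of 7), and complex II 0.16 (3 of 3) and -0.068 (1 of 3). Complex IV gave 0.13 and 0.013, with 5 of 9 genes higher in each dog. ATP synthase gave 0.081 in dog 2 (4 of 7) and 0.13 in dog 3 (5 of 7). Taken gene by gene, the median of the effect in dog 2 minus that in dog 3 was 0.26 in complex I, 0.23 in complex II, 0.12 in complex III, 0.16 in complex IV and 0.040 in ATP synthase. These are descriptions, since genes are not replicates of a dog.

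The size of the difference between the dogs depended on the SVF arrays of dog 2. The median deviation of the 57 genes from their means over the 8 arrays was -0.18 on the first SVF array of dog 2 and 0.082 on the second, against 0.14 and 0.12 on the PRP arrays of that dog. In dog 3 it was -0.0075 and -0.081 in SVF and 0.0082 and -0.091 after PRP. The first SVF array of dog 2 was the lowest of the 8, and the second lay near the PRP arrays. Without the first, 32 genes had a higher mean in dog 2, the median in dog 2 was 0.021 and the median difference between the dogs 0.029. Without the second, the median in dog 2 was 0.31. With 2 SVF arrays in that dog, which of them is the unusual one cannot be told. Over all features the first SVF array of dog 2 deviated by -0.032.

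**Figure D2:**
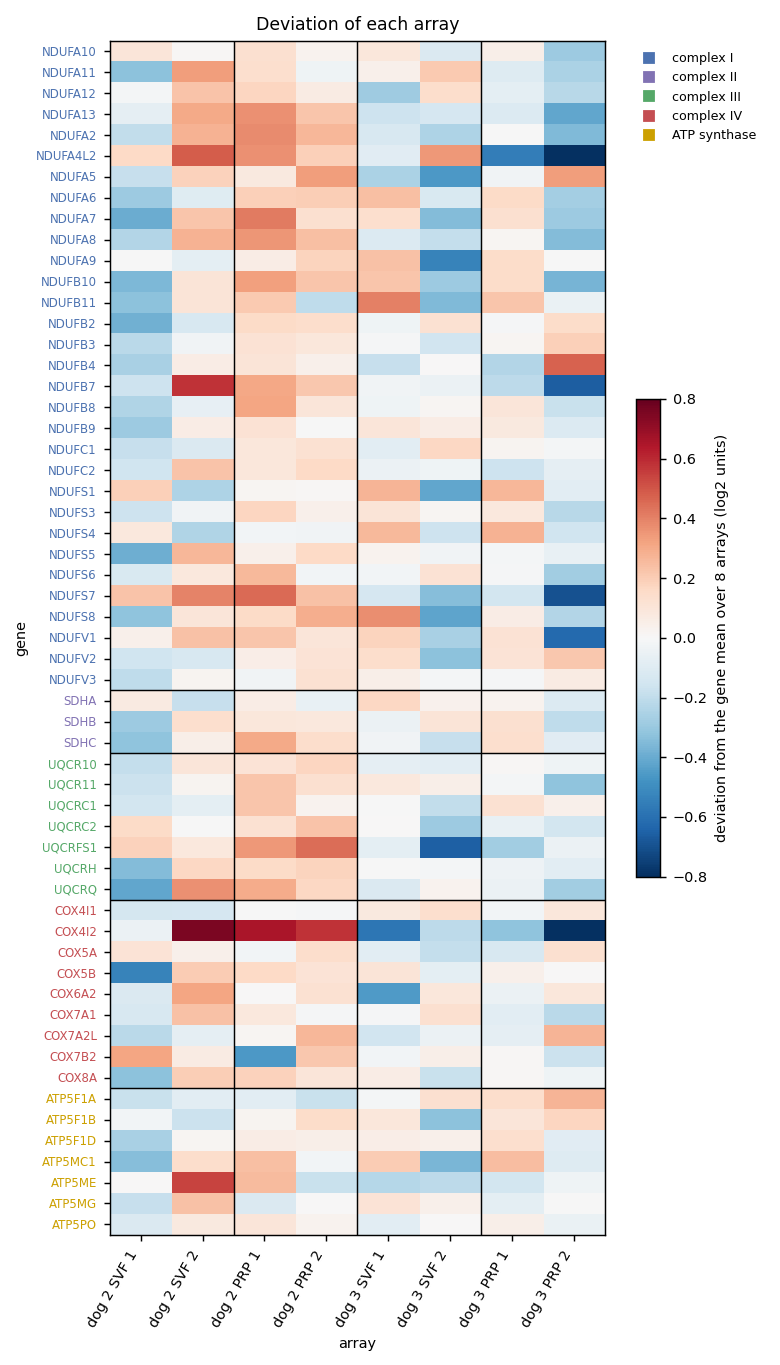
Deviation of each gene (rows, by complex) from its mean over the 8 arrays of dogs 2 and 3 (columns), in log2 units, blue below and red above the mean, with the colour scale ending at 0.8 in each direction. The column of the first SVF array of dog 2 is mostly blue (median -0.18), and the 2 PRP columns of dog 2 are mostly pale red (medians 0.14 and 0.12).

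Counted by arrays, 19 genes had both PRP arrays above both SVF arrays in dog 2 and 0 had both below, where 17.5% and 18.3% of all features did. In dog 3 there were 7 above (10.6% of all features) and 9 below (22.8%). In both dogs at once, 4 genes lay above (4.21% of all features) and 0 below (8.21%). The 4 genes were NDUFB3, an accessory membrane arm subunit of complex I, UQCR10, UQCRC1 and ATP5F1B. NDUFB3 measured 6.79 and 6.98 in SVF and 7.12 and 7.09 after PRP in dog 2, and 7.00 and 6.85 against 7.02 and 7.19 in dog 3, a mean difference of 0.20 ± 0.12 (SE). NDUFB3, UQCR10, UQCRC1 and ATP5F1B were named for this count after their values were seen.

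The gene with the smallest p was NDUFA4L2, a relative of NDUFA4 that is known to be induced by hypoxia. It measured 7.52 and 7.85 in SVF and 7.72 and 7.55 after PRP in dog 2, and 7.27 and 7.71 in SVF and 6.80 and 6.46 after PRP in dog 3. The groups overlapped in dog 2 and were apart in dog 3, where both PRP arrays were the lowest of all 8. The mean difference was -0.45 ± 0.16 (SE), or 1.37-fold lower (limma, unadjusted p = 0.0267, adjusted p = 0.489). It was -0.05 in dog 2 and -0.86 in dog 3, and the effects differed by 0.81 ± 0.33 (SE, limma, unadjusted p = 0.0409), which did not pass adjustment. After NDUFA4L2, the smallest unadjusted p-values for a difference between the dogs belonged to UQCR11 at 0.49 ± 0.26, NDUFA6 at 0.50 ± 0.31 and NDUFB2 at 0.38 ± 0.25 (SE). UQCR11, a small accessory subunit of complex III, measured 9.13 and 9.32 in SVF and 9.53 and 9.44 after PRP in dog 2, and 9.39 and 9.35 against 9.29 and 8.98 in dog 3. Both PRP arrays thus lay above SVF in dog 2 and below it in dog 3, though the difference between the effects did not pass (limma, unadjusted p = 0.0978).

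Pericyte and smooth muscle markers and endothelial markers also had lower means after PRP. Of 12 pericyte and smooth muscle markers 11 had a lower mean after PRP, with a median of -0.24 in dog 2 and -0.38 in dog 3. The mean level over the list was 9.09 to 9.24 in SVF and 8.88 to 8.94 after PRP in dog 2, and 8.19 to 8.21 and 7.72 to 7.96 in dog 3. RGS5, a pericyte marker, measured 11.41 and 11.63 in SVF and 11.69 and 11.53 after PRP in dog 2, and 10.67 and 10.75 against 10.45 and 9.92 in dog 3. MCAM, an adhesion molecule of vessel wall cells, had lower means in both dogs, by 0.64 and 1.00, while MYH11, DES and MYOCD of the same list had higher means in dog 3 (0.14, 0.13 and 0.11). Of 12 endothelial markers 9 had a lower mean, with a median of -0.12 in dog 2 and -0.45 in dog 3 and list means of 10.33 to 10.64 in SVF and 10.38 to 10.46 after PRP in dog 2, and 9.06 to 9.16 and 8.47 to 8.89 in dog 3. None of the markers in both lists passed adjustment, and their part in the NDUFA4L2 values was not tested.

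**Figure D3:**
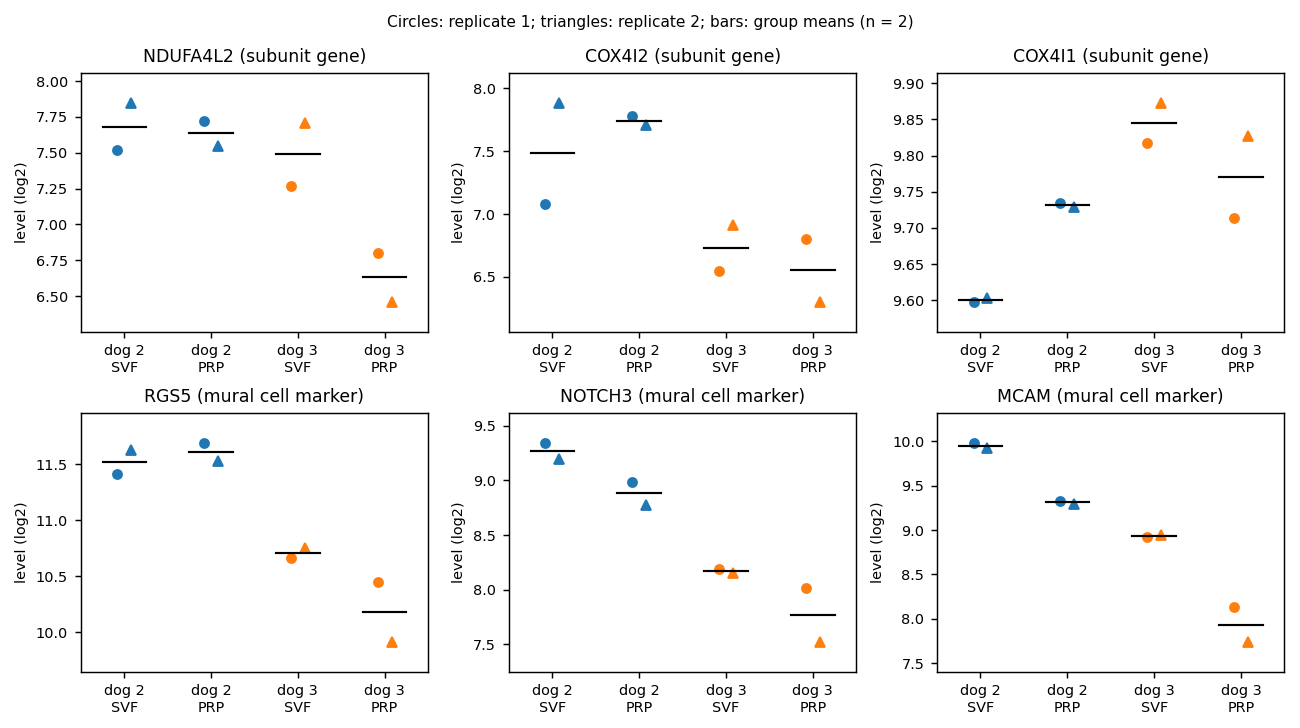
Levels (log2, vertical axes with separate ranges) of the isoform genes NDUFA4L2 and COX4I2, the common isoform COX4I1 and the mural markers RGS5, NOTCH3 and MCAM in the 4 groups of dogs 2 and 3, with circles for replicate 1, triangles for replicate 2 and bars for means of 2 arrays. COX4I2 and the 3 markers are higher in dog 2 than in dog 3, and NDUFA4L2 is lowest in the PRP arrays of dog 3.

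The other isoform genes showed no common direction. COX4I2, an isoform of complex IV subunit 4 tied to oxygen response and known from lung, differed by 0.04 ± 0.22 after PRP and its common partner COX4I1 by 0.03 ± 0.11 (SE). COX6A2 and COX7A1, the isoforms of heart and skeletal muscle, differed by 0.09 ± 0.17 and -0.11 ± 0.13 (SE). COX7B2 differed by -0.20 ± 0.17 (SE), at levels near the lower quartile of the arrays (4.85 to 5.02). Leaving out NDUFA4L2, COX4I2, COX6A2, COX7A1, COX7B2 and COX7A2L, which was listed with them, 41 of 51 genes had a higher mean. The median was then 0.076. COX6B2 and COX8C, and the common isoforms COX6A1, COX6B1, COX7A2, COX7B and NDUFA4, are not analysed here, since no feature naming them alone was used.

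Marker lists of several cell types had larger median differences after PRP than the subunit genes. All 14 adipocyte markers had a lower mean, with a median of -0.66, and the mean level over the list was 10.80 to 11.10 in SVF and 10.33 to 10.53 after PRP in dog 2, and 9.90 to 10.15 and 8.89 to 9.25 in dog 3. Of T and NK cell markers 11 of 13 had a higher mean (median 0.35), and of macrophage markers 7 of 10 (median 0.25). T and NK markers had list means of 6.84 to 7.20 in SVF and 7.31 to 7.71 after PRP in dog 2, and 7.16 to 7.53 and 7.72 to 7.76 in dog 3. Those of the macrophage markers overlapped, at 8.55 to 9.47 in SVF and 8.90 to 9.75 after PRP in dog 2. In dog 3 the macrophage means were 9.28 to 9.71 and 9.39 to 9.71. None of the adipocyte, T and NK cell or macrophage markers passed adjustment, and their part in the subunit values was not tested.

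Genes that serve the same machinery were set beside the subunits. Assembly factors, which build the complexes, had 26 of 39 genes with a higher mean (median 0.11), and mitochondrial ribosomal proteins and translation factors had 58 of 78 (median 0.13). Electron carriers and coenzyme Q enzymes had 11 of 15 (median 0.11), citric acid cycle enzymes 9 of 18 (median -0.0044) and regulators of mitochondrial biogenesis 7 of 19 (median -0.084). In each of these 5 lists 0 genes passed adjustment. At an unadjusted p below 0.05 there were 8 higher and 0 lower genes in mitochondrial translation, against 2.87% higher and 6.58% lower over all features. Among the regulators there were 1 higher and 4 lower.

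In the translation list MRPS33, a small ribosomal subunit protein, differed by 0.57 ± 0.14 (SE) and had higher means in both dogs (0.38 and 0.76). MRPL47 differed by 0.45 ± 0.14, while MRPS16 and MRPS21 differed by -0.23 ± 0.14 and -0.16 ± 0.13 (SE). PC, the pyruvate carboxylase of the citric acid cycle list, measured 9.72 and 9.08 in SVF and 8.39 and 8.78 after PRP in dog 2, and 8.51 and 8.31 against 7.71 and 7.06 in dog 3. Its PRP arrays lay below the SVF arrays in both dogs, with a mean difference of -0.92 ± 0.22 (SE, limma, adjusted p = 0.373). OGDH differed by -0.32 ± 0.13, and SUCLG1 and SUCLA2, which encode succinyl-CoA ligase subunits, by 0.34 ± 0.15 and 0.26 ± 0.14 (SE).

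Among the regulators, PPARA, a nuclear receptor for fatty acid oxidation, differed by -0.60 ± 0.18 and SIRT3, a mitochondrial deacetylase, by -0.38 ± 0.11 (SE, limma, adjusted p = 0.446 for each). TEFM, the mitochondrial transcription elongation factor, differed by 0.56 ± 0.21 and GABPB1, a subunit of the GABP transcription factor, by 0.51 ± 0.25 (SE). Of the carriers, COQ7 and NDUFAB1, a coenzyme Q enzyme and the mitochondrial acyl carrier protein, differed by 0.40 ± 0.13 and 0.38 ± 0.14. PDSS2 and COQ8A, also of the coenzyme Q pathway, differed by -0.23 ± 0.17 and -0.22 ± 0.21 (SE). Among the assembly factors COX18 and SDHAF2 differed by 0.40 ± 0.14 and 0.28 ± 0.12, and TTC19 and COX19 by -0.43 ± 0.13 and -0.27 ± 0.13 (SE).

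Between the dogs in untreated SVF, 25 of 57 genes were higher in dog 2 and 32 in dog 3, with a median of -0.0099 against -0.026 over all features. None of the genes passed adjustment (limma), while 1.28% of all features did. At an unadjusted p below 0.05 were 2 genes, both higher in dog 2, against 4.83% of all features in that direction (6.9% in the other). Both dog 2 arrays lay above both dog 3 arrays in 8 genes (16.1% of all features) and below in 8 (22.3%). Without the first SVF array of dog 2, 42 genes were higher in dog 2, with a median of 0.14.

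The gene with the smallest p between the dogs was COX4I2, an isoform gene. It measured 7.08 and 7.88 in SVF of dog 2 against 6.54 and 6.91 in dog 3, and 7.78 and 7.71 against 6.80 and 6.30 after PRP. Every array of dog 2 lay above every array of dog 3, and in SVF the difference was 0.75 ± 0.30 (SE, limma, unadjusted p = 0.0412, adjusted p = 0.391). It was 1.15 without the first SVF array of dog 2 and 0.35 without the second. The common isoform COX4I1 lay on the other side, at 9.60 and 9.60 in dog 2 and 9.82 and 9.87 in dog 3, a difference of -0.24 ± 0.16 (SE). NDUFS7, an iron-sulphur core subunit of complex I, measured 10.22 and 10.39 in dog 2 and 9.86 and 9.66 in dog 3, a difference of 0.55 ± 0.23 (SE, limma, adjusted p = 0.406).

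Also higher in dog 2 were UQCRFS1 by 0.50 ± 0.23, ATP5ME by 0.49 ± 0.24 and NDUFA5 by 0.36 ± 0.22 (SE). NDUFB2, NDUFA6, NDUFC1 and ATP5F1A were lower, by -0.30 ± 0.18, -0.25 ± 0.22, -0.19 ± 0.17 and -0.18 ± 0.17 (SE). Most pericyte and smooth muscle markers were also higher in dog 2, with a median difference of 1.03 over 12 markers. NOTCH3, a receptor of vessel wall cells, differed by 1.10, while PDGFRB and MYOCD of the same list differed by -0.14 and -0.07. Endothelial and adipocyte markers had medians of 1.45 and 1.03, and stromal markers -0.33. Some markers passed adjustment between the dogs (limma, adjusted p from 0.0154 to 0.0481), where 1.28% of all features did. They were ACTA2, MYH11 and CNN1, the endothelial PECAM1, CDH5, VWF, KDR and ESAM, and the adipocyte CIDEC and LIPE. The other markers of the 4 lists did not pass. The part of these lists in the COX4I2 values was not tested.

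The company arrays had no replicates, so their differences have no replicate check and no test was made. The subunit genes were highest in the SVF of company B. Of the 57 genes 46 had their highest level there, where 25.4% of all features did, and 1 had its lowest level there, where 22.2% did. Company A had the lowest level in 43 genes, against 17.4% of all features, and 39 genes had the order B, C, A, against 9.9%. Of the 8098 features with the highest levels, which held 51 of the genes, 36.1% were highest in company B.

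The median difference was 0.59 between companies B and A, 0.21 between C and A and -0.37 between C and B, against 0 for each over all features. At 2-fold or more, 13 genes were higher in B than in A (4.14% of all features) and 0 were lower (8.13%). Between C and A, 0 genes were higher (2.11%) and 0 lower (3.43%), and between C and B 0 were higher (7.07%) and 4 lower (4.22%). One identical value on all 3 arrays was found for SDHA, COX7B2 and ATP5ME, and for 29.5% of all features. For the 3 genes a difference between the companies could not be seen. Over all features 10648 were higher in B than in A and 10011 lower, with the rest equal, which places their median at 0. Among the 57 genes 50 were higher and 1 lower. Features equal on all 3 arrays have no highest or lowest company, which limits the shares given over all features.

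**Figure D4:**
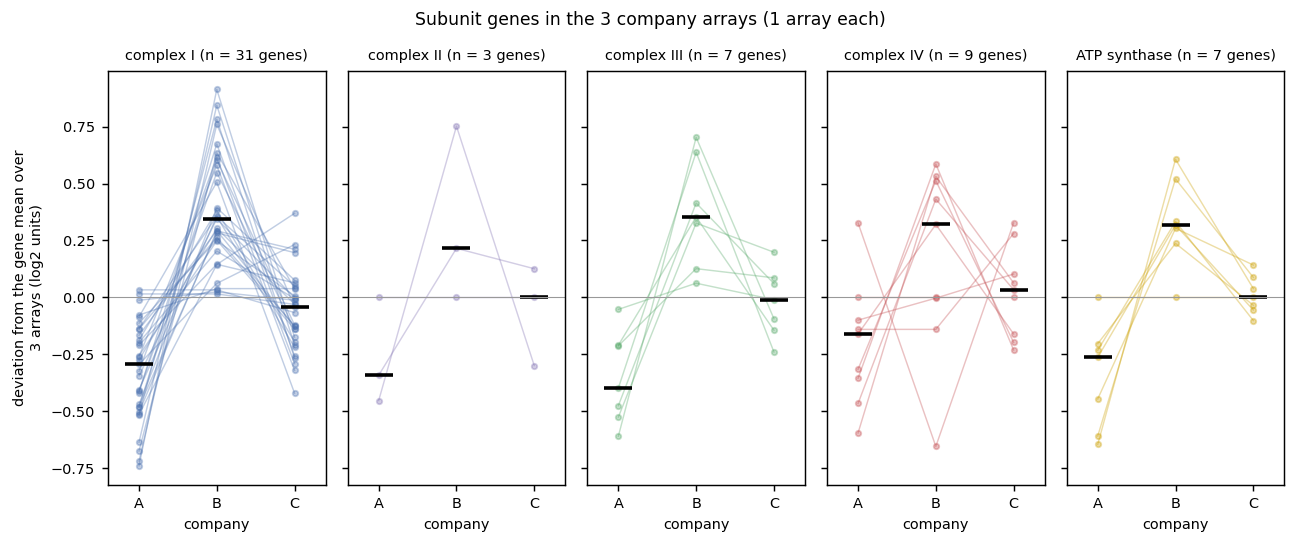
Deviation of each gene from its mean over the 3 company arrays (log2 units), by complex, with 1 line per gene and a bar at the median. In all 5 complexes the median is lowest in company A and highest in company B, and a single complex IV gene, COX4I2, has its low point in company B.

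The order of the companies was the same in every complex. The median of B minus A was 0.66 in complex I, 0.56 in complex II, 0.85 in complex III, 0.48 in complex IV and 0.58 in ATP synthase. The median of C minus A was 0.25, 0.15, 0.30, 0.12 and 0.21 in the same order. All 7 genes of complex III were highest in B and lowest in A, against 26 of 31 highest in B in complex I, 5 of 9 in complex IV and 6 of 7 in ATP synthase. Complex IV, with most of the isoform genes, had the smallest share.

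The widest ranges were in complex I and complex III. NDUFA7, an accessory subunit of the matrix arm, measured 8.87 in company A, 10.52 in B and 9.43 in C, which puts B 3.14-fold above A. NDUFS8, an iron-sulphur core subunit, measured 7.84, 9.32 and 8.27, and NDUFA11 8.43, 9.90 and 9.10, each 2.79-fold higher in B than in A. NDUFV1, the core subunit that binds NADH and FMN, measured 6.98, 8.28 and 7.23. NDUFA8, on the intermembrane side of complex I, measured 8.43, 9.74 and 9.15, and UQCR11 of complex III 9.66, 10.97 and 10.17. In all 6 genes company B was highest and company A lowest, with company C between them.

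The other 7 genes at least 2-fold higher in B than in A were NDUFA13, NDUFV3, SDHB, UQCRC1, COX7A2L, ATP5F1D and ATP5MC1. They came from all 5 complexes, and were named for the count after their values were seen. SDHB measured 8.40 in A, 9.61 in B and 8.56 in C, while SDHA had 7.46 on all 3 arrays. ATP5F1D, the delta subunit of the central stalk, measured 6.06, 7.31 and 6.74. NDUFA6, NDUFB3, COX7A1 and COX6A2 were highest in company C, and NDUFA6 measured 8.44, 9.10 and 9.33.

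COX4I2 was the exception, with 5.43 in A, 4.45 in B and 5.43 in C, so that B was lower by 0.98. These levels were weak. A and C had one identical value, little above the medians of their arrays (5.31 and 5.25), and B lay below its own (5.14). The common partner of COX4I2, COX4I1, went the other way, with 10.14, 10.97 and 10.26. NDUFA4L2 measured 3.94, 3.94 and 3.84, below the median of each array. Of the 12 pericyte and smooth muscle markers, 6 were higher in B than in A, 1 was lower and 5 had one identical value on all 3 arrays. The lower one was RGS5, by 1.00 (6.13 in A, 5.13 in B and 6.31 in C). ACTA2 and TAGLN, the actin and transgelin of smooth muscle and activated stromal cells, were higher by 1.98 and 2.06. Their part in the COX4I2 values was not tested.

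Other gene lists of the mitochondrion were higher in company B as well. Mitochondrial translation had a median of 0.58 for B minus A, with 60 of 78 genes highest in B and 13 at least 2-fold higher than in A. Assembly factors had 0.36 (26 of 39 highest in B), electron carriers and coenzyme Q enzymes 0.31 (9 of 15) and citric acid cycle enzymes 0.28 (12 of 18). The regulators of mitochondrial biogenesis had a median of 0 and 4 of 19 highest in B (21.1%, against 25.4% of all features). Of these 19, 9 had one identical value on all 3 arrays (47.4%, against 29.5% of all features and 5.3% of the subunit genes). For those 9 a difference between the companies could not be seen, which limits the median and the share. PPARGC1A, the coactivator that drives mitochondrial biogenesis, measured 4.61 in A, 4.25 in B and 4.39 in C, below the median of each array. In the regulator list 4 genes were higher in B than in A and 6 lower. PPARD, on the higher side, measured 6.52, 8.14 and 6.64. CYC1, the cytochrome c1 of complex III that the name rule leaves out, measured 7.63, 8.65 and 7.98, like its complex.

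**Figure D5:**
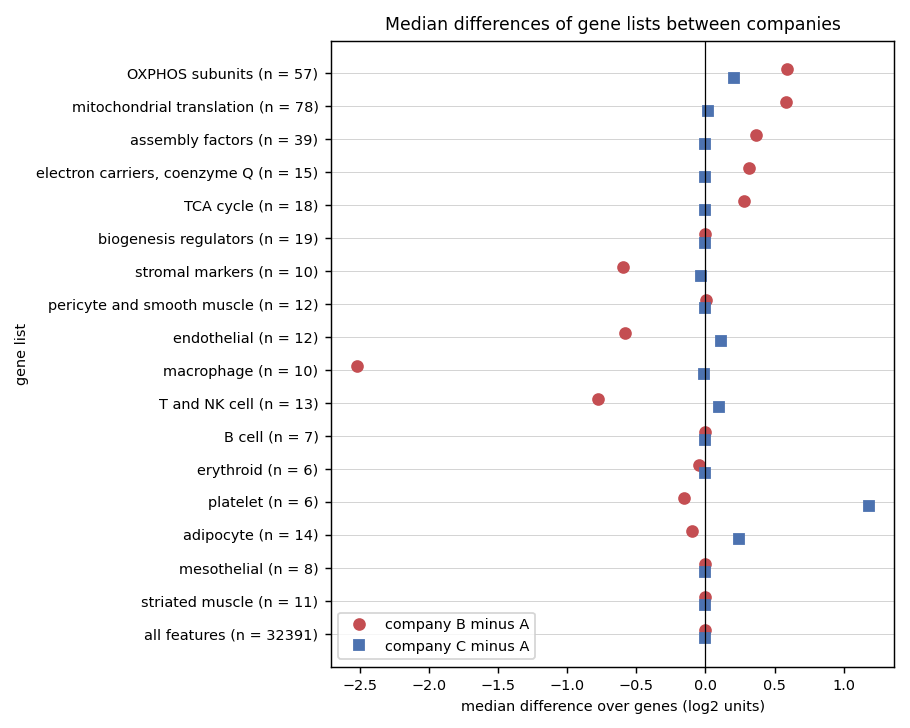
Median difference over the genes of each list (log2 units) for company B minus A (circles) and company C minus A (squares), with the number of genes in each list. The oxidative phosphorylation (OXPHOS) subunits (0.59) and mitochondrial translation (0.58) lie farthest to the right for company B, and macrophage markers (-2.52) farthest to the left.

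The company B cells also differed in their cell type markers. Macrophage markers had a median of -2.52 for B minus A, with 9 of 10 at least 2-fold lower, and their mean level was 7.55 in A, 5.07 in B and 7.50 in C. T and NK cell markers had a median of -0.78 and list means of 6.02, 4.46 and 6.13, and endothelial markers -0.58 and 6.18, 5.03 and 6.58. PECAM1, an endothelial adhesion molecule, measured 8.62, 3.99 and 9.18, and CSF1R, the macrophage growth factor receptor, 9.07, 5.38 and 9.03. Stromal markers had a median of -0.60, with 6 of 10 lower in B than in A and 3 higher, and list means of 11.01, 10.53 and 11.05. CD34, carried by adipose stromal and endothelial cells, was lower by 2.81 in B. Adipocyte markers had a median of -0.10. The part of these markers in the subunit values of company B was not tested.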

How the data were processed

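The authors deposited log2 expression values for 32391 features on 11 arrays, made from 6 µg of RNA each per the labels' protocols. Per the submitters' processing notes, Partek was used. The sources used here do not give the summarization, the normalization or the genome build. Features were named from the platform annotation, in which 16545 name 1 gene, and each gene was read from the feature of highest mean level in dogs 2 and 3.

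Groups came from the titles. For dogs 2 and 3, limma 3.58.1 (R 4.3.3, lmFit, eBayes, no filter) estimated 1 mean per group over 8 arrays, leaving 4 residual degrees of freedom. P-values were adjusted by Benjamini-Hochberg across every feature, calls were made below 0.05, and the fit was tested on simulated data. Company arrays were described by differences, with 2-fold counted. Subunit genes, marker lists and gene lists were chosen with earlier results of these data known. Named genes were up to 3 per complex and direction by p, the isoform genes, up to 5 per direction between the dogs, 4 for the dogs' difference in effect, the 6 widest company ranges and up to 2 per related list and direction. CYC1, PPARGC1A, PPARD and single markers were chosen outside this rule.

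Over all features, same-numbered arrays deviated together (correlations of deviations from the group means of 0.230 in dog 2, 0.160 in dog 3 and 0.165 to 0.399 across the dogs, while over the 57 genes alone they were -0.352 in dog 2 and 0.232 in dog 3), so a fit with a replicate block was set beside the main one. Promoter and protein sequences were not analysed here. Alternatives covered scaling, filters, model terms and leaving out arrays.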

Additional observations from a re-analysis of the deposited data

How the results depend on the processing

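With a replicate block for the 4 pairs of equal number, 0 of 57 genes passed for PRP and the median stayed at 0.075, so the block changed no call. In the settings run for each contrast of the 8 arrays, 0 genes passed, though not every setting was run for every contrast. Without 1 array at a time, the PRP median ran from 0.010 to 0.16 with 32 to 48 genes higher. It ran from 0.021 to 0.31 in dog 2 (32 to 52 genes higher), from -0.079 to 0.072 in dog 3 (18 to 37), from 0.029 to 0.33 for the difference between the dogs (36 to 49) and from -0.14 to 0.14 between the dogs in SVF (18 to 42). The complex medians ran from 0.017 to 0.14 (I), -0.036 to 0.16 (II), 0.056 to 0.21 (III), -0.022 to 0.19 (IV) and 0.010 to 0.10 (ATP synthase). Where 1 array remained in a group, its spread was taken from the other groups.

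Centring each array on its median moved the PRP median of all features from -0.031 to 0.042. The median of the 57 genes rose from 0.075 to 0.15, and the genes with a higher mean from 44 to 49. In dog 3 the median moved from -0.025 to 0.065 and the count from 27 to 39, so the even split there depended on the scaling. The same centring turned SDHA to 0.033 and ATP5ME to 0.020. Without both number 2 PRP arrays these were 0.022 and 0.028. The sign also turned without 1 array for NDUFB7 (-0.35 to 0.018), NDUFA11 (-0.29 to 0.037), SDHA (-0.10 to 0.024), SDHB (-0.059 to 0.16), COX5B (-0.026 to 0.34), COX8A (-0.0064 to 0.26), COX4I2 (-0.16 to 0.24), COX6A2 (-0.050 to 0.22), ATP5MG (-0.20 to 0.0076) and ATP5ME (-0.19 to 0.082). Other differences kept their sign but moved by over 1.5 times, such as ATP5MC1 (0.041 to 0.32), UQCRFS1 (0.090 to 0.38) and NDUFV2 (0.12 to 0.36).

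For the companies, which have no replicates, a value counted as moved beyond the spread of dog array medians. Centring gave B minus A medians of 0.76 over all genes, 0.82 (I), 0.72 (II), 1.02 (III), 0.65 (IV) and 0.75 (ATP synthase). It gave C minus B medians of -0.49 over all genes, -0.47 (III) and -0.49 (ATP synthase), with 21 genes 2-fold higher in B than A and 8 2-fold lower in C than B. Quantile normalization of the 3 arrays gave C minus A of 0.17 (III) and 0.099 (ATP synthase) and C minus B of -0.49 (ATP synthase). Over all 11 arrays it gave B minus A of 0.73 (III), C minus A of 0.16 (III) and 0.087 (ATP synthase), and 2 genes 2-fold lower in C than B. Bright features alone gave B minus A of 0.83 (IV) and C minus A of 0.40 (ATP synthase). Without genes of identical value, complex II had 0.88, 0.31 and -0.57 for B minus A, C minus A and C minus B, complex IV had 0.65 for B minus A and ATP synthase 0.40 for C minus A. At 1.5-fold, 29 genes were higher in B than A (9.58% of all features) and 1 lower (12.9%), 10 higher in C than A (5.48%), and 1 higher (11.2%) and 16 lower (9.75%) in C than B. The cause of these shifts was not tested. No gene had more than 1 feature, so averaging features changed nothing.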
